A study of Homo sapiens with 7 samples.

Results

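A set of 8 genes of fatty acid oxidation was described in HepG2, a human liver cancer cell line that is used as a model of hepatocytes and of liver cancer. They were taken by symbol from the expression table, in which they are 8 of 23303 loci with a gene symbol and 8 of 30032 loci in all. The genes are CPT1A, CPT2, ACADM, ACADL, ACADVL, HADHA, HADHB and EHHADH. None of them is an enzyme of ketogenesis proper, so the ketogenic genes are given as a neighbouring list. The data comprise 7 samples of cultured HepG2 cells, with 1 sample for each of native MNase-Seq, RNA-Seq and ChIP-Seq of 5 histone marks. No normal hepatocyte and no second cell type was analysed here, so each level below is a description of this line.

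Fatty acid oxidation removes acetyl-CoA units from fatty acids. Long-chain fatty acids enter mitochondria as carnitine esters, made by carnitine palmitoyltransferase at the outer membrane and turned back into acyl-CoA by the inner membrane enzyme. Inside, acyl-CoA dehydrogenases that differ in the chain length they prefer start each cycle, and the trifunctional protein carries out the remaining steps on long chains. Peroxisomes hold a separate set of enzymes, and in the fasted liver much of the acetyl-CoA becomes ketone bodies. H3K4me3, H3K9ac and H3K27ac are marks of active promoters, H3K27ac also of enhancers, and H3K27me3 and H3K9me3 are marks of repressed chromatin.

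Liver identity was checked first. The 7 hepatocyte markers ranged from 64.6 FPKM for HNF4A to 10011 FPKM for ALB, which encodes albumin. Of 7 markers of other liver cell types, 5 were under 0.2 FPKM, among them the leukocyte gene PTPRC at 0 in both runs. The other 2, CD68 and ACTA2, stood at 542.5 and 33.9 FPKM. The value for CD68 is that of a locus of 7 symbols that includes EIF4A1. ACTA2 is the only symbol of its locus, so by its value this marker was expressed. Its locus shares coordinates with other loci, as do those of STAB2, APOA1 and HNF4A. Whether this affects the values was not tested.

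Of the 8 genes, 7 had a mean of at least 1 FPKM (fragments per kilobase of transcript, scaled to the number of mapped fragments), the limit used here for an expressed gene, against 48.7% of named loci. Their median was 33.4 FPKM, beside 0.790 FPKM over all named loci and 11.9 FPKM over the expressed ones. HADHA and HADHB, the alpha and beta subunits of the trifunctional protein, had the highest levels. ACADL, the long-chain acyl-CoA dehydrogenase, was the only one of the 8 that was not expressed. The RNA-Seq table holds 2 runs under 1 sample, and since it is not stated whether they are separate cultures, the differences between runs may be technical only.

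**Figure D1:**
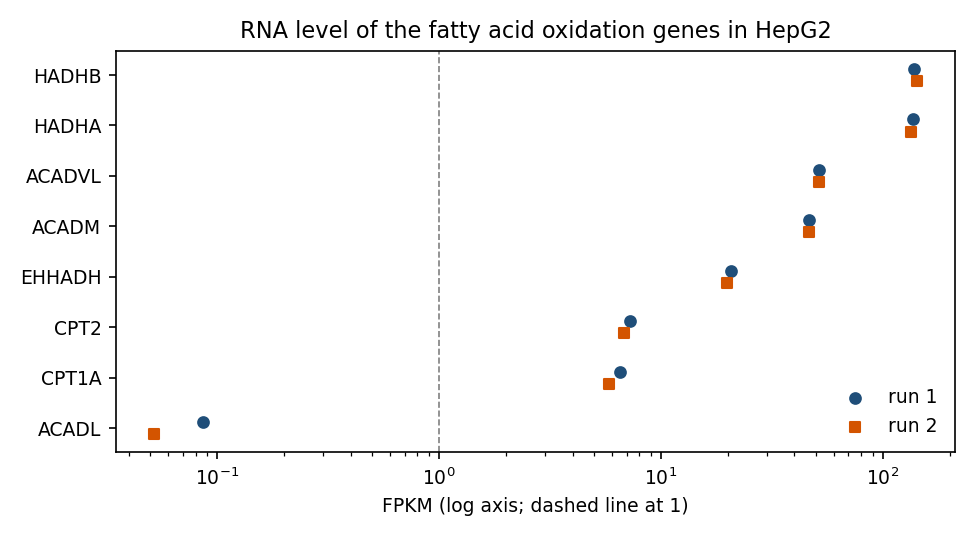
FPKM of the 8 fatty acid oxidation genes in HepG2 on a log axis, with run 1 as circles and run 2 as squares; the dashed line marks 1 FPKM. HADHA and HADHB lie between 134.5 and 142.1 FPKM, the 5 genes from CPT1A to ACADVL between 5.86 and 51.8 FPKM, and ACADL is under 0.1 FPKM in both runs.

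CPT1A, the outer membrane enzyme that controls entry of long chains, had 6.54 FPKM in run 1 and 5.86 FPKM in run 2. CPT2, its partner at the inner membrane, had 7.22 and 6.84 FPKM. The carnitine shuttle genes were thus the lowest of the 7 expressed genes, with 66.0% of named loci below CPT1A and 67.7% below CPT2. The mean of CPT2 was 1.13 times that of CPT1A, a gap of about the size of the 11.1% by which the runs of CPT1A differed.

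The acyl-CoA dehydrogenases were far apart. ACADM, which acts on medium chains, had 46.4 and 46.6 FPKM, and ACADVL, which acts on very long chains, had 51.8 and 51.4 FPKM. ACADL had 0.0868 FPKM in run 1 and 0.0521 FPKM in run 2, so that its runs differed by 50.0% of their mean at a level where only 37.8% of named loci were lower. Over the table, 39.8% of named loci had under 0.1 FPKM.

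The trifunctional protein subunits were nearly equal. HADHA, which carries the hydratase and hydroxyacyl-CoA dehydrogenase activities, had 137.4 FPKM in run 1 and 134.5 FPKM in run 2. HADHB, the thiolase subunit, had 138.9 and 142.1 FPKM, which is 1.01 times HADHA in run 1 and 1.06 times in run 2. Both exceeded 100 FPKM, as did 3.11% of named loci.

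EHHADH, the bifunctional enzyme of peroxisomes, had 20.7 FPKM in run 1 and 19.8 FPKM in run 2 and thus stood between the shuttle and the expressed dehydrogenases. From lowest to highest, the order of the means was ACADL, CPT1A, CPT2, EHHADH, ACADM, ACADVL, HADHA and HADHB. The runs of neighbours in this order did not overlap. The pairs CPT1A and CPT2, ACADM and ACADVL, and HADHA and HADHB were only 1.13, 1.11 and 1.03 times apart, and with 1 sample these orders are not established. RefSeq lists pseudogenes of CPT2 (1), HADHA (2) and HADHB (1), which are not rows of the expression table. Whether their reads are part of the values was not tested.

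The genes differ in how well their start sites are placed. CPT1A, ACADM, ACADL, HADHA and HADHB have coordinates of their own, so their transcription start site (TSS) is the listed end on the inferred strand. CPT2, ACADVL and EHHADH share their coordinates with 1, 3 and 1 other loci, and the listed end need not be their own start. Coordinates of loci and nucleosomes are those of hg19. No exon annotation of that build was used here, so a position is described only as inside a listed locus or in its flank.

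CPT1A lies at chr11:68522087-68609399 on the minus strand and ACADM at chr1:76190042-76229355 on the plus strand. ACADL lies at chr2:211052401-211090215 on the minus strand. HADHA, at chr2:26413503-26467594 on the minus strand, and HADHB, at chr2:26467615-26513333 on the plus strand, point away from each other with listed starts 21 bp apart. Their starts in RefSeq (GRCh38.p14) lie 307 bases apart, so the listed starts are not exact. CPT2 is listed at chr1:53662100-53686315 on the plus strand together with C1orf123 on the minus strand. ACADVL, on the plus strand, is listed at chr17:7093209-7143083 with DLG4, MIR324 and a locus of DVL2 and PHF23, all inferred to run on the minus strand. EHHADH is listed at chr3:184908409-185010900 on the minus strand with an unnamed plus strand locus of 11.5 FPKM.

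The 250 bases before the RefSeq start are printed for 3 genes, because they represent an expressed gene with its own promoter, the gene that was not expressed, and the promoter shared by the highest pair. The RefSeq table (GRCh38.p14) held 7 of the 8 genes, without EHHADH. Sequences are written 5′ to 3′ on the strand of the gene, and capitals mark matches to GGGCGG, the GC box letters, on either strand.
ACADM, chr1:75724459-75724708, plus strand: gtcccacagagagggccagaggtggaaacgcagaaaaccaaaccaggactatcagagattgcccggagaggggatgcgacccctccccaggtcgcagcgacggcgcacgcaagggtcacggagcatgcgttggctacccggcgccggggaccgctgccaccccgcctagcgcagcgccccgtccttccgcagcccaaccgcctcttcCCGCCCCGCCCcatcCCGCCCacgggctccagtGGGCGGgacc
ACADL, chr2:210225448-210225697, minus strand: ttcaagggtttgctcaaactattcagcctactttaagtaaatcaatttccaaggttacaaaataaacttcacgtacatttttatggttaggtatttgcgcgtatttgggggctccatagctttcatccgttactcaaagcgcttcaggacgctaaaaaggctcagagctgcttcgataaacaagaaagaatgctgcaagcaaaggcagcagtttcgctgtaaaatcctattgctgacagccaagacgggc
HADHA, chr2:26244633-26244882, minus strand: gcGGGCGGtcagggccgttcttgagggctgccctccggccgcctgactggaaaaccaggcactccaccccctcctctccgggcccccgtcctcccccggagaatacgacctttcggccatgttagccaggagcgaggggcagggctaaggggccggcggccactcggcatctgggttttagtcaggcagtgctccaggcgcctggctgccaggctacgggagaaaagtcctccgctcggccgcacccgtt

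The ACADM window was the richest in G and C of the entries of these genes, at 70.8%, and held 4 matches to GGGCGG, of which 2 overlap by a base. The ACADL window was the poorest, at 42% against a median of 58% over 35116 promoters, and held no match. The HADHA window held 1 match, and the HADHB window, which shares 194 bases with it, held 2. CPT2 had 3 matches, CPT1A none, and the 2 entries of ACADVL had 0 and 2. Of all promoters, 42.6% held at least 1 match.

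Other letters were searched on both strands in the same windows. AGGTCA, the half-site of many nuclear receptors, is found in 12.1% of all promoters and in none of these. Its exact direct repeat with a spacer of 1 base (DR1), the consensus form for PPARA with RXRA, occurs in 0.0171% of promoters and in none of these. At this rate a few windows would hold none in any case, and inexact repeats were not searched. CCAAT (32% of promoters) and CACGTG (6.34%) were not in these windows either. TATAAA (10.7%) was in 1 of the ACADVL entries only. These are counts of letters in a window of 250 bases and say nothing of binding.

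Nucleosomes were then read around the TSS. The MNase-Seq list holds 14217405 positions, and the 5 peak lists hold between 26271 and 95886 marked positions each. A position with H3K4me3, H3K9ac and H3K27ac and neither repressive mark is called trivalent, or "T". Of the 5 genes whose TSS is their own, 3 had at least 1 "T" within 2 kb, against 42.9% of all such genes and 84.8% of the expressed ones. The same 3 genes, ACADM, HADHA and HADHB, had at least 3 "T", against 27.8% of all and 56.4% of expressed genes. Since HADHA and HADHB share their positions, these 3 genes stand for 2 promoters. All 5 had H3K4me3 within 2 kb (54.2% of all and 92.4% of expressed genes), and all 5 were free of H3K27me3 and H3K9me3 there, like 88.7% of all genes.

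**Figure D2:**
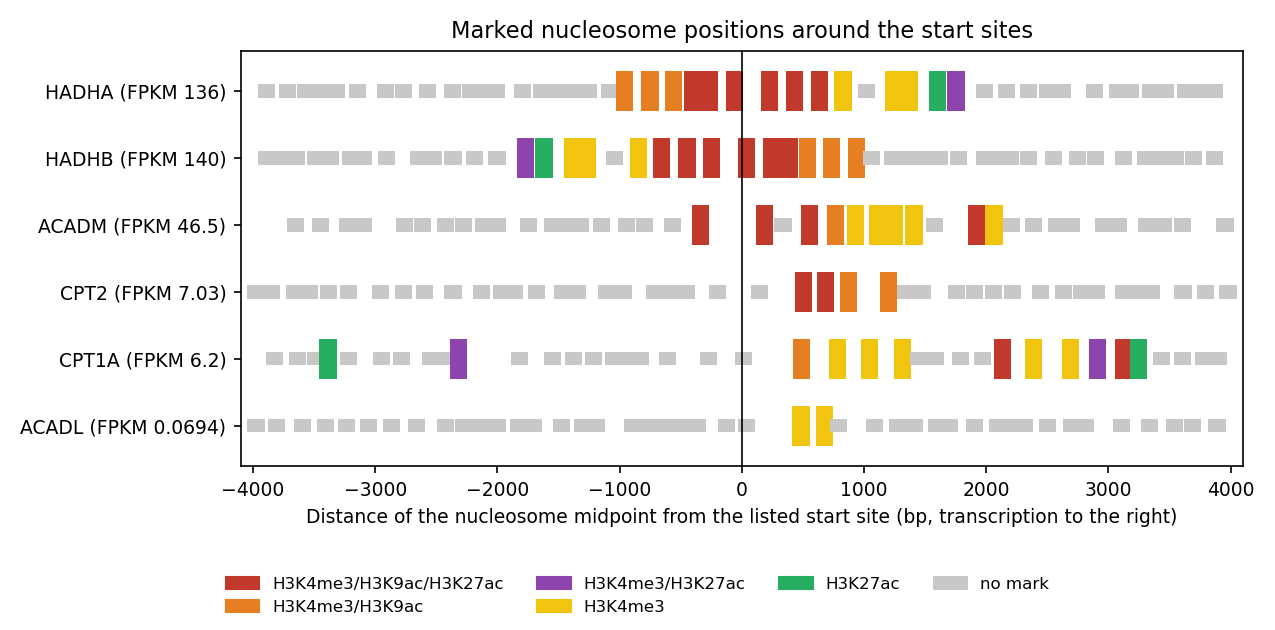
Nucleosome positions around the listed start sites of 6 genes, with distance from the start in bp and transcription to the right. Tall coloured bars are marked positions by their exact combination of marks, low grey bars are unmarked positions, and for CPT2 the start is the listed end of shared coordinates. HADHA and HADHB show the same 14 marked positions mirrored, ACADM and CPT2 have "T" on the gene side, CPT1A has "T" only beyond 2 kb, and ACADL has 2 positions with H3K4me3 alone.

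HADHA and HADHB had 22 positions within 2 kb of either TSS, and 14 of them were marked (63.6%, 95% interval 40.7 to 82.8%). The interval treats positions as independent, though marked positions lie side by side. The 14 comprised 6 "T", 3 with H3K4me3/H3K9ac, 3 with H3K4me3 alone, 1 with H3K4me3/H3K27ac and 1 with H3K27ac alone. They formed a single stretch of 2852 bp, chr2:26465772-26468623, with 1 unmarked position inside it. The "T" sat in the centre of this stretch. On the side of HADHB they gave way to H3K4me3/H3K9ac, and on the side of HADHA to H3K4me3 alone and then to positions with H3K27ac.

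At least 14 marked positions within 2 kb were seen at 0.806% of expressed genes (51 of 6331), and at least 6 "T" at 13.1%. By the listed starts the "T" were evenly divided, 3 upstream and 3 downstream of each TSS, whereas 8.09% of expressed genes had 3 or more upstream. This split depends on where the starts are placed, since a "T" midpoint lay 41 bp inside HADHB and 62 bp before HADHA. An upstream "T" of one gene here is a downstream "T" of the other. Of 341 head-to-head pairs with starts within 1 kb, 209 had both genes expressed. Of the 418 genes in these pairs, 38.5% had at least 3 upstream "T" and 2.39% had at least 14 marked positions.

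In level, HADHA and HADHB were closer than most such pairs. The median fold between the genes of an expressed pair was 2.78, and 4 of the 209 pairs (1.91%) differed by less than the 1.03-fold between these genes. Theirs was the only expressed pair in which both genes reached 100 FPKM. Among the 423 expressed genes with 6 "T", whose median was 16.8 FPKM, 94.6% had a lower level than HADHA and 95.3% a lower level than HADHB.

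ACADM had 19 positions within 2 kb of its TSS, 9 of them marked, all with H3K4me3. There were 4 "T", 1 was H3K4me3/H3K9ac and 4 had H3K4me3 alone. One "T" lay upstream and 3 downstream, with a gap of 518 bp between the midpoints on either side of the TSS, wider than at 74.6% of expressed genes. At least 4 "T" were found at 38.2% of expressed genes. Its stretch of 10 marked positions extended to the position after the 2 kb limit, chr1:76189637-76192176.

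CPT1A was expressed without a "T" within 2 kb of its listed TSS. Of 18 positions there, 4 were marked, 1 with H3K4me3/H3K9ac at 489 bp and 3 with H3K4me3 alone at 783, 1043 and 1313 bp downstream. None had H3K27ac, a state (H3K4me3 without H3K27ac) found at 6.48% of expressed genes. Of 2314 genes within 2-fold of its level, 15.6% had no "T" within 2 kb. The marked stretch went on into the gene, with "T" at 2133 and 3123 bp, and covered chr11:68606084-68608980 with 10 marked and 4 unmarked positions. A separate "T" lay in the flank beyond the end of CPT1A, near the listed start of MTL5 (a mean of 0.0865 FPKM). On the upstream side of CPT1A, H3K4me3/H3K27ac lay at -2317 bp and H3K27ac alone at -3387 and -4182 bp. The listed TSS of CPT1A was not compared with its RefSeq start, which is on another build.

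ACADL had H3K4me3 near its TSS without acetylation. Its 21 positions included 2 with H3K4me3 and no acetylation, in the stretch chr2:211089469-211089801 just inside the gene, and none with H3K27me3 or H3K9me3. Of 5516 silent genes (under 0.1 FPKM), 11.8% had any H3K4me3 position within 2 kb and 5.78% had H3K4me3 with neither acetylation. H3K27me3 was found within 2 kb of 17.1% of silent genes. The gap at the ACADL TSS was 165 bp, narrower than at most expressed genes, whose median was 375 bp, and silent genes had a median of 220 bp.

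CPT2 had 20 positions within 2 kb of its listed end, of which 4 were marked. All 4 lay inside the locus in chr1:53662532-53663371, as 2 "T" followed by 2 H3K4me3/H3K9ac positions. A second stretch of 5 marked positions with 3 "T", chr1:53685737-53686811, covered the other end of the locus, which is the listed start of C1orf123 (20.2 FPKM).

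The plot of RNA level by number of "T" sets these 5 genes beside expressed genes. The median of the 5 genes was 4 "T", with HADHA and HADHB each counted, and that of expressed genes was 3. Counted as 1 shared promoter, they would leave 0, 0, 4 and 6 "T". The higher median thus rests on counting that promoter for both genes. Over all named loci, where shared listed ends count too, the order turned, with 1 for the 8 genes and 2 for expressed genes. HADHA, HADHB and ACADM lay above the median level of genes with as many "T", and CPT1A, at 6.20 FPKM, above the 4.72 FPKM of expressed genes with none.

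**Figure D3:**
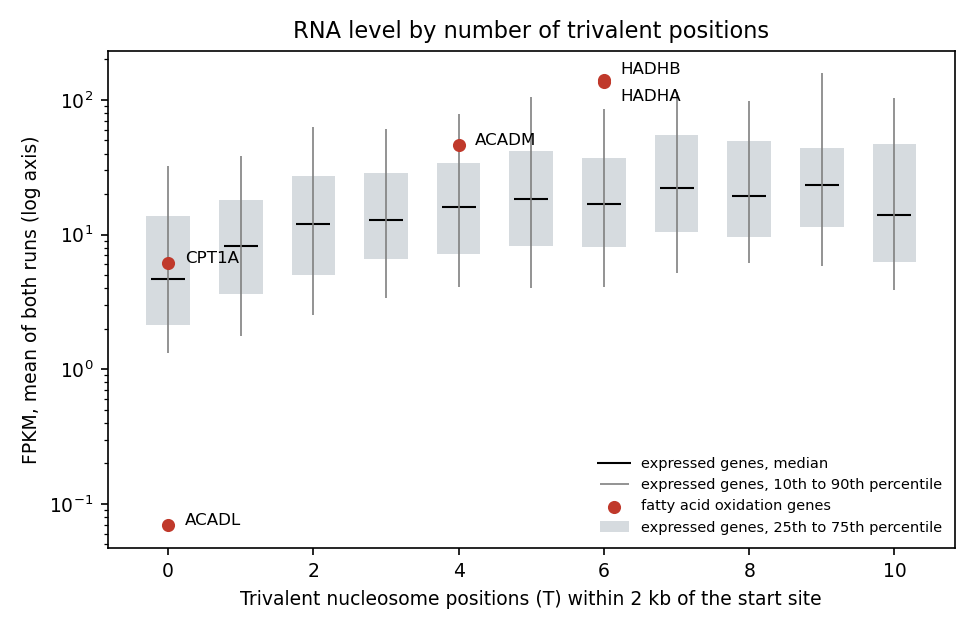
Mean FPKM on a log axis against the number of trivalent positions within 2 kb of the start. Bars and lines give the percentiles of expressed genes with each number (shown for numbers with 20 or more genes) and points the 5 fatty acid oxidation genes with a start of their own. HADHA and HADHB, with 6 "T" each, lie above the 90th percentile of 85.3 FPKM, while ACADL, with 0 "T", is below the expressed range.

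Over the 8 loci with 10 kb on either side, the authors' lists gave 3075 nucleosome positions, of which 103 were marked, each counted once (3.35%, 95% interval 2.74 to 4.05%). The median share per locus was 3.65% over the 8 loci and 3.52% over expressed genes. H3K4me3 was on 83 of the 103, H3K9ac on 54 and H3K27ac on 50. By exact combination, 31 were "T", 31 had H3K4me3 alone, 18 had H3K4me3/H3K9ac and 14 had H3K27ac alone.

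In the lists used here, repressive marks were nearly absent. No position had H3K27me3 over the 8 loci, and 69.3% of genes with an own TSS also had none. H3K9me3 was on 1 position, in the upstream flank of EHHADH about 2 kb beyond its listed end, and 71.1% of genes with an own TSS had none. The nearest H3K27me3 position lay between 36.9 kb (EHHADH) and 791 kb (CPT1A) from the nearer end of the listed locus. The lowest share of marked positions was at the ACADL locus, with 4 of 326 (1.23%, 95% interval 0.335 to 3.11%). The highest share was at HADHB, with 23 of 359 (6.41%, 95% interval 4.10 to 9.46%), where 9 marked positions lie in the flank beyond the end of the gene.

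ACADVL and EHHADH, both expressed, had 0 marked positions within 2 kb of the listed end that the inferred strand makes their start. The activation marks lay elsewhere in the shared loci and, for ACADVL, in the flanks. At ACADVL, 21 of 354 positions were marked and 10 were "T". The longest stretch, chr17:7122959-7124111, began about 29.8 kb from the lower end and held 6 marked positions, 4 of them "T". Further stretches, chr17:7137432-7137816 and chr17:7141362-7142221, held 1 and 3 "T", the latter within 2 kb of the upper end. Whether any of them belongs to ACADVL, to DVL2 and PHF23 (together 29.7 FPKM) or to DLG4 (0.466 FPKM) was not determined. The RefSeq starts of ACADVL are on another build and were not placed on these positions. C17orf81, at 24.1 FPKM, is listed as starting just beyond the upper end.

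**Figure D4:**
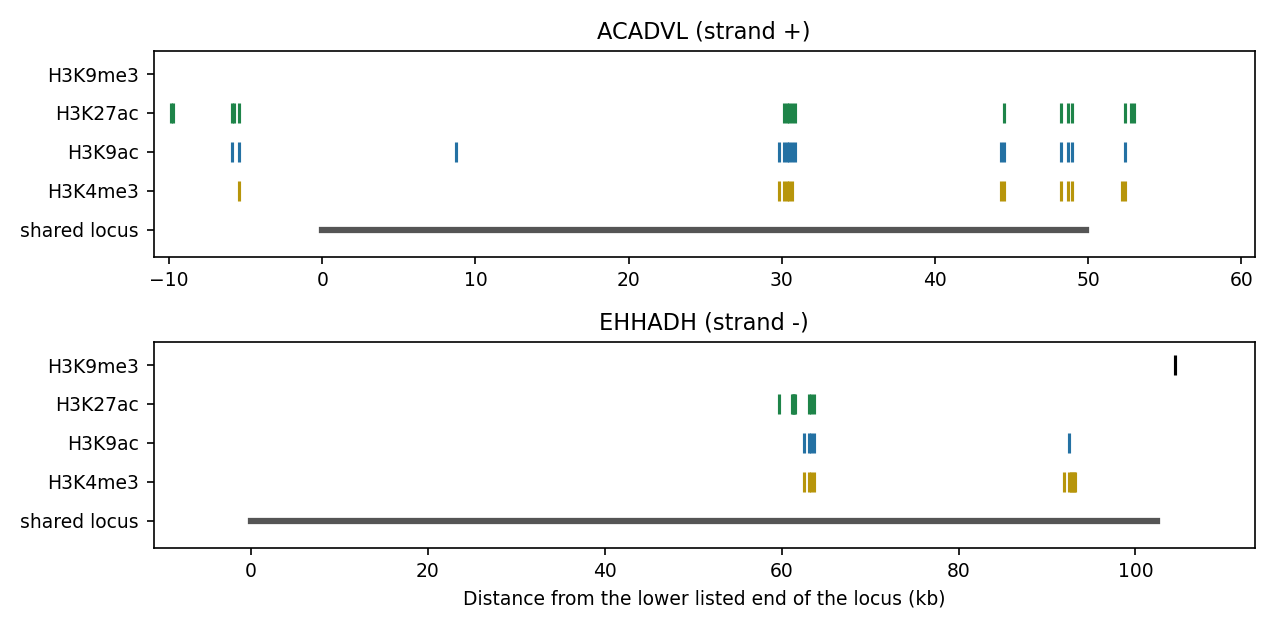
Positions with each mark over the shared loci of ACADVL (top) and EHHADH (bottom), in kb from the lower listed end, with the locus as a dark bar; each tick is 1 nucleosome position. Inside the loci, the longest marked stretches begin at about 29.8 and 48.2 kb for ACADVL and at about 61.1 and 92.0 kb for EHHADH. At ACADVL 12 of the 21 marked positions lie in the locus and the others in both flanks, and the H3K9me3 position of EHHADH lies in a flank. The lower end of ACADVL and both ends of EHHADH have no activation mark within 2 kb.

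At EHHADH, 16 of 624 positions were marked, in 2 main stretches. The first, chr3:184969484-184972176, had 8 marked positions, of which 7 had H3K27ac and 3 were "T". From the lower coordinate upwards it ran from H3K27ac alone into H3K4me3/H3K9ac and then "T". The second, chr3:185000292-185001666, had 6 positions with H3K4me3, 1 of them also with H3K9ac, and no H3K27ac. Whether either stretch holds the EHHADH start was not determined.

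The order of marks at each TSS was compared with that of the 13289 genes with an own TSS. Of these genes, 6331 were expressed, among them 1032 of the 1112 with 2 "T" and 965 of the 7592 with no "T". No other gene had the string of combinations of ACADM, HADHA or HADHB. These strings are long, with 9, 14 and 14 marked positions, and how often strings of such length are unique was not counted. CPT1A shared its string with 10 genes, 6 of them expressed, and nearest in level were SLC36A1 (4.86 FPKM) and CCDC64 (4.29 FPKM). The string at the CPT2 end was found at 21 genes, all 21 expressed, and FAM108C1 (6.76 FPKM) was among those near it in level. ACADL shared its 2 H3K4me3 positions with 113 genes, of which 34 were expressed, and COX6B2 (0.0655 FPKM) and HIVEP3 (0.0651 FPKM) were nearest.

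The rest of the pathway was read from 6 lists with 51 genes, all found in the table. Of them, 46 were expressed, against 48.7% of named loci, with a median of 14.4 FPKM over the 51. Of the 33 that were expressed and had a TSS of their own, 28 had at least 1 "T" within 2 kb (background 84.8%).

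All 4 ketogenic genes were expressed. ACAT1, the mitochondrial thiolase that makes acetoacetyl-CoA, was highest at 77.9 FPKM (77.0 and 78.8 in the runs).

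In the carnitine list, 5 of 6 genes were expressed, with CPT1B counted by a row it shares with CHKB. SLC25A20, the carnitine acylcarnitine carrier of the inner membrane, was highest at 15.8 FPKM, and CPT1C, the brain isoform, was lowest at 0.0719 FPKM. Of the other mitochondrial oxidation genes, 11 of 11 were expressed. They ranged from ETFDH (6.64 FPKM) to ETFB (240.4 FPKM, a row shared with VSIG10L), both in the transfer of electrons to the respiratory chain.

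Of the peroxisomal genes, 9 of 10 were expressed, from 6.29 FPKM upwards, with SCP2, a thiolase and sterol carrier, at 106.3 FPKM. ABCD2, a transporter of very long acyl-CoA, was the exception at 0.0104 FPKM in run 1 and 0 in run 2. Of 9 genes of activation and uptake, 8 were expressed. FABP1, the liver fatty acid binding protein, had 267.2 FPKM and ACSL6, an acyl-CoA synthetase, 0.692 FPKM.

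Of 11 regulators and PPARA targets, 9 were expressed, ESRRA by a row it shares with C11orf20, with PLIN2, a lipid droplet coat protein, highest at 84.8 FPKM. PPARA itself, the receptor that induces oxidation genes in fasting, had 6.62 and 6.57 FPKM. Its known targets PDK4 and FGF21 were under 1 FPKM. PDK4, which holds back pyruvate oxidation, had 0.196 and 0.327 FPKM in the runs. FGF21, the fasting hormone, had 0 and 0.145 FPKM, and was lowest of the list.

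**Figure D5:**
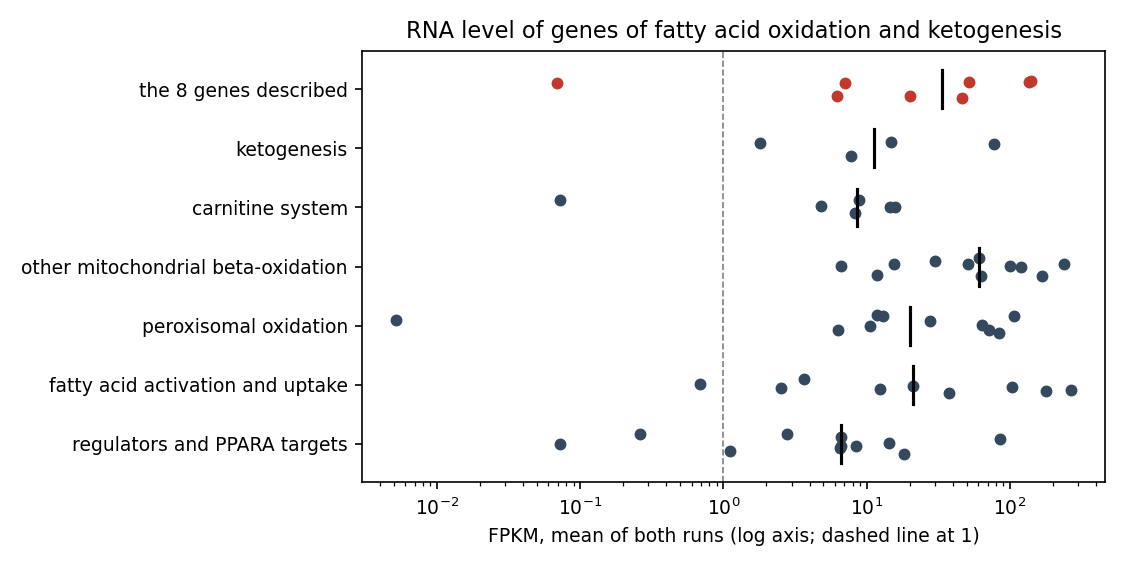
Mean FPKM on a log axis of the 8 genes and of 6 lists of the pathway; each point is a gene, vertical bars are medians, the dashed line marks 1 FPKM, and the vertical scatter of points within a list has no meaning. In all, 5 of the 51 genes in the lists lie left of the line, and the other mitochondrial oxidation genes have the highest median, 61.3 FPKM.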

How the data were processed

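RNA-Seq, native MNase-Seq and ChIP-Seq of each of the 5 histone marks were performed on 1 HepG2 sample apiece. The submitters' processing notes name hg19, BWA, TopHat2 2.1.0, Bowtie, HOMER 4.7 and edgeR, with no role given. The authors called nucleosome positions with DANPOS and peaks at these positions with NUCLIZE, at a P value and false discovery rate of at most 0.01, at least 4-fold enrichment over input and at least 4 more reads. They deposited both as coordinates with an identifier but without height or read number, which leaves the signal at each position unknown. The paper does give approximate read totals for MNase-Seq and ChIP-Seq. The authors deposited RNA-Seq values as FPKM in 2 columns, called run 1 and run 2 here. Whether the runs are separate cultures is not given in the sources used here. Their p-value, q-value and fold change columns, which compare the runs, were not used.

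Each peak was assigned to the position it overlapped most. The strand of a locus was inferred from the order of locus numbering. It was checked only at loci longer than 10 kb with H3K4me3 near a single end. Where coordinates were not shared, that end was the inferred start for 97.7% of these loci. For shared coordinates, as those of CPT2, ACADVL and EHHADH, it was 62.5%. The main set held 13289 named genes that share neither coordinates nor symbol with another locus, 6331 of them with a mean FPKM of at least 1. Positions were counted by midpoint, and 95% intervals of shares are exact Clopper-Pearson intervals that cover counting error only. They treat positions as independent, although marked positions lie in stretches, and they give no spread between samples. Counting was tested on simulated data. With 1 sample per assay no p-value was computed. The 8 genes and all lists were chosen with earlier results of these data known. Of each pathway list, the genes named are those with the highest and lowest FPKM and those under 1. Some genes that this rule names are not reported here. Promoter bases were taken from RefSeq on GRCh38.p14, another build than that of the positions, so no position was placed on them. Alternatives were other windows, flanks, FPKM limits, pseudocounts (0.01 in the main values), single runs, any overlap of a peak, and all named loci. Scripts ran in Python 3.11.15 with pandas 2.3.3, numpy 2.4.6, scipy 1.17.1 and matplotlib 3.10.9.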

Additional observations from a re-analysis of the deposited data

How the results depend on the processing

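No paired analysis was possible because each assay has 1 sample. Of 61 alternative values, 49 kept their size, 12 moved and 0 changed sign, but 1 comparison turned. The FPKM of each gene in a single run is among the 49 by construction. It was held against the standard deviation of the 2 runs, and either run always lies closer to their mean than that. With a window of 1 kb the median number of "T" fell to 3 for the genes described, with HADHA and HADHB each counted, and to 2 for expressed genes. With all named loci of inferred strand it was 1 for the genes described, where ACADVL and EHHADH count with the unmarked ends of shared loci, and 2 for expressed genes, so that the genes described were lower instead of higher. The number of genes with "T" near the TSS was 3 of 5 within 1 and 2 kb and 4 of 5 within 5 kb, where CPT1A joins. The other values that moved were ranks computed without low loci and the ACADL difference between runs, which went from -0.64 to -0.05 on the log2 scale with a pseudocount of 1. The number of marked positions over the loci was 69 without flanks and 153 with flanks of 20 kb, against 103 with 10 kb. Both counted as unchanged, because counts were allowed to differ up to a fold limit. Peaks carry no read counts, so an unmarked position may be one that the calling limit left out.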

Other observations

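Some expressed genes of the pathway lists had no "T" within 2 kb of their own TSS, a set picked out after the values were seen. ACSL4, an acyl-CoA synthetase that prefers arachidonate, had 177.8 FPKM in run 1 and 178.8 FPKM in run 2, with 2 marked positions and none with H3K4me3. PPARGC1A, a coactivator of PPARA, had 8.40 FPKM and CD36, a fatty acid transporter, 3.67 FPKM, and both had 0 marked positions. SLC27A5, a bile acid and fatty acid CoA ligase, stood at 2.54 FPKM with 1 marked position. At 178.3 FPKM, ACSL4 stood higher than HADHA and HADHB, which had 6 "T" each. FGF21, which was not expressed, had 7 marked positions within 2 kb, all 7 with H3K27ac and none with H3K4me3, at 0 FPKM in run 1 and 0.145 FPKM in run 2.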
